A study of Mus musculus with 4 samples.

Results

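The adult and embryonic globin genes are described here across cell classes of spleen and bone marrow (BM). The set was fixed by name as 7 genes, namely the adult alpha genes Hba-a1 and Hba-a2, the adult beta genes Hbb-bs and Hbb-bt, the embryonic genes Hbb-bh1 and Hba-x, and Ahsp, of 32285 genes in the count tables. Values are given for 6 of the 7, and Ahsp was not analysed here. Single-cell RNA-sequencing (scRNA-seq) was performed on 1 library from each of 4 groups of female C57BL/6J mice aged 8 to 16 weeks, and messenger RNA was counted by unique molecular identifiers (UMIs), so that copies of 1 captured molecule count once. Spleen (CS) and BM (CBM) came from control mice without a tumor, and tumor-bearing mice gave the TS and TBM libraries. These mice carried PyMT-B6, a line from tumors that arose in MMTV-PyMT mice, which express a viral oncogene in mammary tissue, and the sources used here do not give the number of mice behind a library. Digested tissue was depleted of lineage-positive cells, sorted into c-Kit+ hematopoietic stem and progenitor cells (HSPCs) and into CD45- gates, and combined at equal ratios, so a library does not hold cells in the proportions of the tissue. With 1 library in each group there is no replicate and no test, and every interval below is an exact 95% interval that covers counting error only.

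Hemoglobin is a tetramer of alpha-type and beta-type globin chains that each hold a heme, and it fills the maturing erythroblast as heme synthesis and globin transcription rise together. The genes of each type lie in a cluster in the order of their use in development, so Hba-x and Hbb-bh1 serve the primitive erythroid cells of the embryo and Hba-a1, Hba-a2, Hbb-bs, and Hbb-bt serve definitive erythroid cells. The transcription factors Klf1, Gata1, and Tal1 drive the adult genes, Bcl11a and Sox6 repress the embryonic beta-like genes, and Ahsp is a chaperone of free alpha chains.

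In the GENCODE M21 annotation of GRCm38, the same assembly as the mm10 build named in the submitters' processing notes, Hbb-bt (ENSMUSG00000073940) lies at chr7:103812524-103813996, Hbb-bs (ENSMUSG00000052305) at chr7:103826534-103828096, and Hbb-bh1 (ENSMUSG00000052217) at chr7:103841637-103843164, all on the minus strand. Hba-x (ENSMUSG00000055609) lies at chr11:32276400-32278116, Hba-a1 (ENSMUSG00000069919) at chr11:32283511-32284465, and Hba-a2 (ENSMUSG00000069917) at chr11:32296489-32297298, all on the plus strand. The 120 bases before the RefSeq start (GRCm38.p6) of both adult beta genes and of Hba-a2 are shown because the levels of these genes come apart below. They were read at chr7:103827929-103828048 (minus strand), chr7:103813924-103814043 (minus strand), and chr11:32296372-32296491 (plus strand), and capitals mark CCACACCC, CCAAT, and ATATAA found on either strand.
Hbb-bs: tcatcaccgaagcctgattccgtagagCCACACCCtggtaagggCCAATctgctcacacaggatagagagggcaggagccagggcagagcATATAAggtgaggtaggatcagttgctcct
Hbb-bt: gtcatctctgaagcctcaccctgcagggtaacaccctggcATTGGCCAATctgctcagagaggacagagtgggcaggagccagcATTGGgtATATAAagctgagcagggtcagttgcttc
Hba-a2: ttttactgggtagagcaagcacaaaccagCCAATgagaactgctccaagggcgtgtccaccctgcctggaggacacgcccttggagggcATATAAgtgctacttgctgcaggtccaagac
Among the 4 adult genes, CCACACCC was found before Hbb-bs and not before the other 3, and it was present in 1.84% of 32851 promoter windows of this length. ATATAA was found before all 4 genes and in 4.47% of the windows, and CCAAT before all 4 and in 21.3% of the windows. AGATAA was also searched, was in 4.36% of the windows, and was before none of the 4. The windows of Hba-a1 and Hba-a2 were 95.1% identical and those of Hbb-bs and Hbb-bt 75.2%.

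The paralogs are close enough for reads to be shared. Of the runs of 50 bases in the last 300 bases of the Hba-a1 transcript, 80.1% were also in Hba-a2, so the split between these 2 genes is uncertain. Of those of Hbb-bs 36.7% were also in Hbb-bt, which leaves more sequence to tell the beta genes apart. The alpha and beta pairs thus differ in shared sequence, and what this does to alpha over beta was not tested. Counts came from the 3′ end of transcripts, so a count of UMIs does not grow with transcript length and UMIs of different genes are set side by side.

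The libraries held 101811035 (CBM), 135207987 (TBM), 145301019 (CS), and 176094297 (TS) UMIs. Barcodes with at least 1000 genes and at most 10% UMIs of mitochondrial (mt-) genes were taken as cells, 3497 in CBM and 4340 in TBM, and 3236 in CS and 5188 in TS, with medians of 13738 to 26808 UMIs. Of 16234 distinct cell barcodes, 27 were in more than 1 library. Cells were clustered without any globin gene and named from marker genes, and 11.4% to 33.0% of the cells of a library stayed unnamed. 4 of 37 clusters were erythroid-like, by markers such as Klf1, Car1, and Rhd. Cluster 17, with Slc4a1 (the anion exchanger of the red cell membrane) and Alas2 (the first enzyme of erythroid heme synthesis) among its leading genes, held 105 CBM, 149 TBM, 65 CS, and 53 TS cells and is called the late cluster here. The other 3 were low in these genes and came mostly from 1 library each. Cluster 1 held 1147 TS cells of its 1170, cluster 7 held 695 CS cells of its 728, and cluster 10 held 477 TS cells of its 586.

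Adult globin genes made up a large part of all RNA counted in the late cluster. The 4 genes together took 27.8% of its UMIs in CBM and 26.0% in TBM, and 24.02% in CS and 16.2% in TS. Per cell the adult globin share ran from 0.799% to 73.7% in CBM with a median of 33.2%, from 1.33% to 79.3% in TBM with a median of 29.1%, from 1.92% to 76.3% in CS with a median of 26.6%, and from 1.11% to 64.2% in TS with a median of 15.4%. The ranges of the 4 libraries overlapped, and TS had the lowest share by sum and by median. All 4 genes had UMIs in quantity in each library, and Hbb-bs was the most abundant in each.

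**Figure D1:**
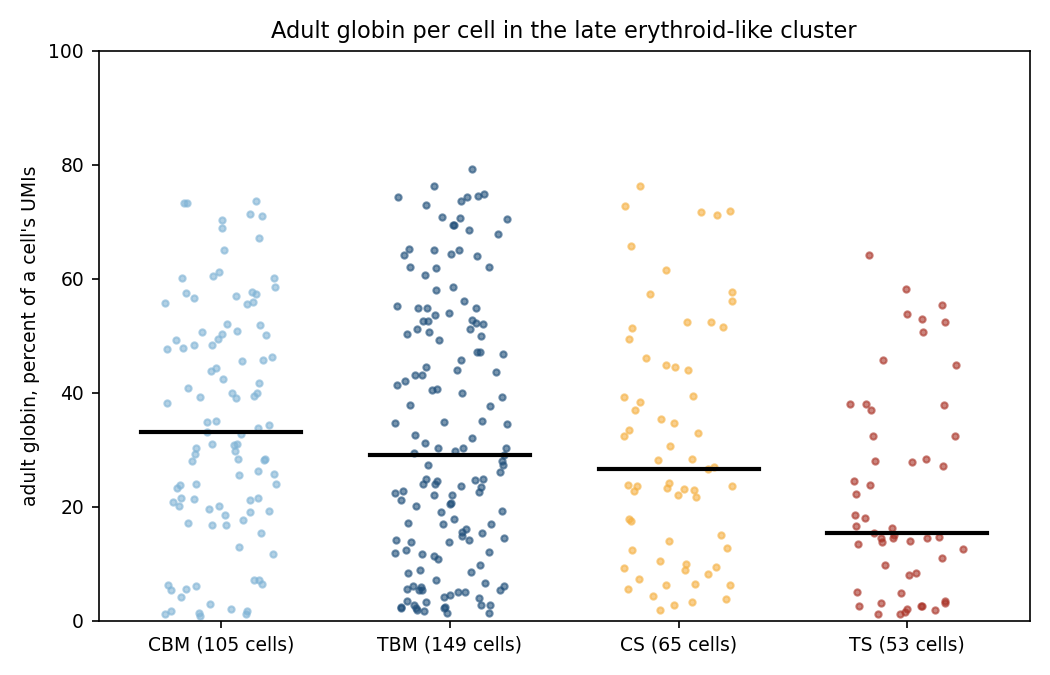
Each point is 1 cell of the late erythroid-like cluster, with the percent of its UMIs that came from Hba-a1, Hba-a2, Hbb-bs, and Hbb-bt on the vertical axis and the library on the horizontal axis; points are spread sideways for legibility and the black bar is the median. In each library single cells spread from 1.92% or less to 64.2% or more, and the TS median of 15.4% was the lowest.

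Hbb-bs, the major adult beta gene, stood at 131090 UMIs per 1000000 (CPM) in CBM and 128997 in TBM, and 108851 in CS and 78805 in TS. Hba-a1 stood at 61980 CPM in CBM and 60431 in TBM, and 54778 in CS and 36232 in TS. Hbb-bt, the minor adult beta gene, stood at 44642 CPM in CBM and 38749 in TBM, and 40724 in CS and 28350 in TS. All 3 genes were lowest in TS. Hba-a2 stood at 39816 CPM in CBM and 32134 in TBM, and 35852 in CS and 18912 in TS, the widest relative span of the 4.

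Between TS and CS, the log2 ratio of summed adult globin in the late cluster was -0.57 (interval -0.57 to -0.56), and the single genes ran from -0.47 for Hbb-bs to -0.92 for Hba-a2. No member passed 2-fold, while 5.31% of the 6022 genes with a mean of at least 10 CPM did in either direction. Between TBM and CBM the log2 ratio was -0.092 (interval -0.098 to -0.087), with Hbb-bs at -0.023, Hba-a1 at -0.037, Hbb-bt at -0.20, and Hba-a2 at -0.31. No member passed 2-fold, against 1.96% of 5853 genes. The control tissues differed by -0.21 (CS over CBM; no member past 2-fold, against 3.06% of genes) and the tumor-bearing tissues by -0.68 (TS over TBM; no member past 2-fold, against 5.89% of genes). The 4 comparisons share libraries. Globin UMIs are themselves a large part of the totals in these cells. With globin UMIs left out of the totals, the TS over CS log2 ratio was -0.71, the TBM over CBM ratio -0.13, and the TS over TBM ratio -0.86. Hba-a2 then stood at -1.06 for TS over CS, past 2-fold. That no member passed 2-fold between TS and CS thus holds only with globin in the totals. The share of all genes past 2-fold was not computed without globin.

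The late cluster also differed between libraries in genes of red cell maturation that are not globins. In CPM of UMIs other than globin, the 10 genes of the late erythroid list summed to 7242 in CBM and 7032 in TBM, and 6264 in CS and 4716 in TS. Slc4a1 stood at 2109, 2151, 1869, and 1284 in this order and Alas2 at 895.6, 779.7, 749.3, and 469.1, so both were lowest in TS. Bpgm, which makes the 2,3-bisphosphoglycerate that sets oxygen affinity, stood at 130.7, 147.3, 124.2, and 43.2. The fold changes here take all UMIs, globin included, as the total. Between TS and CS, 2 of the 10 list genes (Bpgm and Xpo7) were at least 2-fold lower and none was 2-fold higher. Of the 6022 genes tested 5.31% passed 2-fold, 135 lower and 185 higher. On the same totals the list median was -0.41 against 0.11 over all genes tested. The part that maturity of the sampled cells has in the lower globin level of TS was not tested.

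The summed heme synthesis genes were also lowest in TS, although not each gene was, with Uros lowest in TBM and Alas1 in CS. The sum was 6506 CPM of UMIs other than globin in CBM and 6635 in TBM, and 6317 in CS and 5442 in TS. Fold changes were again taken on all UMIs, globin included. Of the 8 genes with enough counts among the 9 listed, none passed 2-fold in any of the 4 comparisons in the late cluster. Medians ran from -0.11 to 0.079. Of 14 globin gene regulators none passed 2-fold in any of the comparisons, with medians from -0.15 to 0.052. In CPM of UMIs other than globin, Klf1, the factor that binds the adult beta promoter, stood at 517.8 in CBM and 384.4 in TBM. It stood at 493.2 in CS and 362.7 in TS. Bcl11a, a repressor of embryonic beta-like genes, stood at 85.5, 117.9, 92.9, and 143.5 in the same order.

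When all 4 erythroid-like clusters were summed, the libraries differed far more. Adult globin then took 14.1% of UMIs in the 146 erythroid-like cells of CBM, 15.7% in the 180 of TBM, 0.729% in the 845 of CS, and 0.199% in the 1685 of TS. The class was held mainly by the late cluster in CBM and TBM, by cluster 7 in CS, and by clusters 1 and 10 in TS, so these values mostly give the mix of clusters. Without the 1% of cells with most adult globin UMIs the share was 0.507% in CS and 0.0900% in TS (TS over CS log2 ratio -2.49), and with finer clusters (resolution 2.0) it was 1.11% in CS and 0.202% in TS (-2.46). The log2 ratio was -1.87 for TS over CS, and all 4 adult genes were at least 2-fold lower, against 1.07% of 7196 genes past 2-fold. It was 0.15 for TBM over CBM, with no member past 2-fold against 2.5% of genes. The ratio between control tissues (CS over CBM) was -4.27 and between tumor-bearing tissues (TS over TBM) -6.30, with all 4 adult genes at least 2-fold lower in both, against 13.3% and 22.5% of genes. With barcodes of at least 350 genes clustered anew, the erythroid-like name fell on 251, 443, 110, and 123 cells, and the shares were 29.7%, 34.0%, 28.1%, and 15.7% in CBM, TBM, CS, and TS. Most of the 845 CS and 1685 TS cells thus did not keep the name, although the filter was lower. The erythroid-like values of spleen depend on the naming of these cells. The TBM over CBM ratio was 0.19 with this clustering and changed sign with a finer one (resolution 2.0, -0.083) or with at least 2000 genes per cell (-0.11).

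The composition of hemoglobin transcripts in the late cluster was close between libraries but shifted with the level of late erythroid genes within each. Alpha over beta was 0.579 in CBM and 0.552 in TBM, and 0.606 in CS and 0.515 in TS. Hbb-bt was 25.4% of adult beta UMIs in CBM and 23.1% in TBM, and 27.2% in CS and 26.5% in TS. Hba-a2 was 39.1% of adult alpha UMIs in CBM and 34.7% in TBM, and 39.6% in CS and 34.3% in TS. The 2 tumor-bearing libraries thus had the 2 lowest Hba-a2 shares, with intervals that did not overlap those of the control libraries, although reads of this pair are the hardest to assign.

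Late-cluster cells were split at the median of their library by the summed share of the late erythroid list, which holds no globin gene. Below the median, Hbb-bt was 29.0% of adult beta UMIs in CBM and 29.2% in TBM, and 31.8% in CS and 35.3% in TS. At or above the median it was 23.7%, 20.6%, 25.4%, and 23.5%. In each of the 4 libraries the cells with more of the late list had the smaller Hbb-bt share, and the intervals did not overlap. Hba-a2 went the other way, from 35.8% of adult alpha UMIs below the median to 40.8% above it in CBM, from 30.7% to 36.5% in TBM, from 34.2% to 41.6% in CS, and from 29.5% to 35.9% in TS. The alpha share of adult globin lay at 34.6% to 37.8% below the median and at 33.8% to 37.7% above it.

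The same order was seen across ranges of adult globin itself, which use the same UMIs and are given as a description. In late-cluster cells with under 10% adult globin, Hbb-bt was 41.8% of adult beta UMIs in CBM (16 cells) and 43.2% in TBM (32 cells), and 37.4% in CS (15 cells) and 40.4% in TS (16 cells). In cells with at least 50% it was 22.5% in CBM (28 cells) and 19.3% in TBM (43 cells), and 24.9% in CS (14 cells) and 20.6% in TS (7 cells). The intervals of the 2 ranges did not overlap in any library.

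The other erythroid-like clusters held little globin RNA. Cluster 10, which stood next in the summed late list at 399.6 to 569.7 CPM of UMIs other than globin, had adult globin at 1533 CPM in TBM (26 cells), 621 in CS (68 cells), and 485 in TS (477 cells). The amount was uneven between its cells, and in TS 5 cells held 38.8% of the adult globin UMIs. In this cluster Hbb-bs and Hbb-bt were near each other, at 455 against 408 CPM in TBM, 122 against 153 in CS, and 124 against 136 in TS. Hbb-bt was thus 47.3% of adult beta UMIs in TBM, 55.6% in CS, and 52.3% in TS, above the share in the late cluster, and it was 50.4%, 58.8%, and 56.6% without the 1% of cells with most globin. Alpha was also a larger part of adult globin, 43.7% in TBM, 55.8% in CS, and 46.6% in TS.

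Clusters 1 and 7 held little globin, and Car1 gave most of their UMIs of the early erythroid list. The 10 genes of this list summed to 4166 CPM of UMIs other than globin in cluster 1 of TS and 3935 in cluster 7 of CS, against 4187 to 4699 in the late cluster. Car1 (carbonic anhydrase 1) stood at 3359 CPM of UMIs other than globin in cluster 1 of TS and at 3127 in cluster 7 of CS, above its 837 to 1321 in the late cluster. Klf1 (131 and 162 against 363 to 518), Rhd (63.0 and 54.7 against 863 to 1160), and Tfrc, the transferrin receptor (201.5 and 187.2 against 1232 to 1612), were lower there than in the late cluster. Kit, the receptor used in the sort, was higher in both (176 and 156 against 12.3 to 23.5), and Gata2 was higher in cluster 7 of CS (44.1 against 3.09 to 20.4). Alas2 stood at 0.370 and 0.206. Adult globin was 43.2 CPM in cluster 1 of TS and 57.9 CPM in cluster 7 of CS. Each adult gene stood there at 0.640% to 1.98% of its level in the free RNA of the library. The part of free RNA in these UMIs was not tested.

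Barcodes of 100 UMIs or fewer, taken as free RNA, were rich in globin. Adult globin was 9598 CPM in CBM and 11545 in TBM, and 7667 in CS and 2797 in TS, lowest in TS as in the late cluster. Its composition was near that of the late cluster, with Hbb-bt at 25.3%, 21.0%, 26.8%, and 29.6% of adult beta UMIs in CBM, TBM, CS, and TS. In barcodes of 10 to 100 UMIs adult globin was lower in each library. It took 0.355% of UMIs in CBM and 0.663% in TBM, and 0.725% in CS and 0.135% in TS, so that CS was highest. Levels set against free RNA here use barcodes of 100 UMIs or fewer and depend on that range. Over 27 sums of other named classes and libraries, Hbb-bs stood at 0.897% to 12.8% of its free RNA level, with a median of 2.05%. Hba-a1 had a median of 1.73%, Hba-a2 of 2.26%, and Hbb-bt of 3.77% with a maximum of 72.2%.

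**Figure D2:**
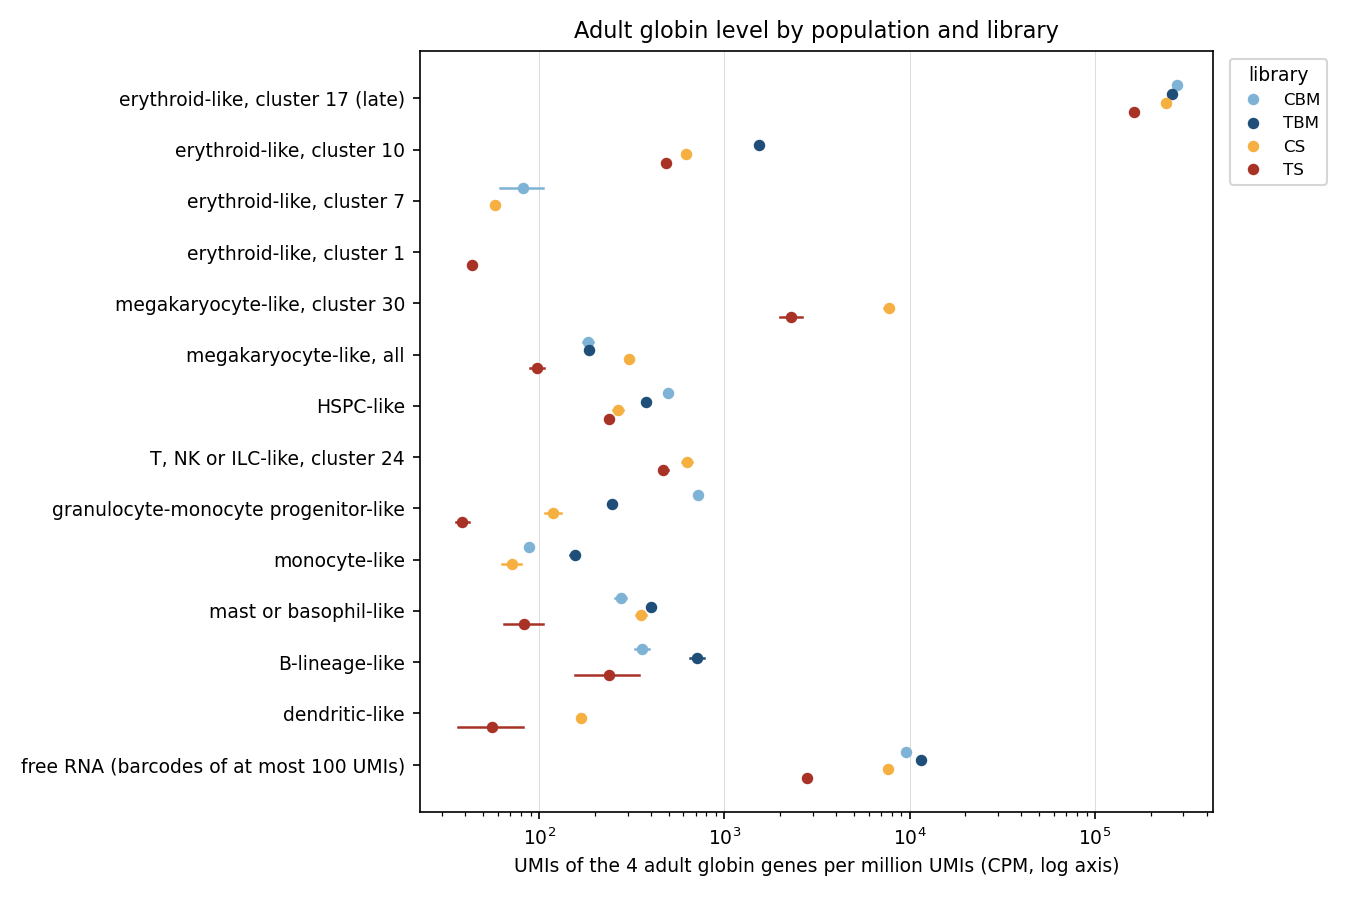
Summed UMIs of the 4 adult globin genes in CPM (log axis) in the populations shown, where a library has at least 20 of their cells, and in free RNA; points are libraries and bars are exact 95% Poisson intervals. The late cluster lies at 162299 to 277528 CPM, above free RNA, and all other plotted populations lie below the free RNA of their library except cluster 30 of CS, at 7715 against 7667 CPM. Free RNA here is barcodes of at most 100 UMIs. Barcodes of 10 to 100 UMIs held 0.135% adult globin in TS, and cluster 30 of TS lies above that level too.

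HSPC-like cells, marked by Hlf, Mecom, and Adgrl4, held more Hbb-bt relative to Hbb-bs than free RNA did. In TS (687 cells) Hbb-bs stood at 27.9 CPM and Hbb-bt at 193 CPM. In CS (151 cells) they stood at 55.2 and 175 CPM, in TBM (920 cells) at 123 and 184 CPM, and in CBM (824 cells) at 226 and 129 CPM. Hbb-bt was the higher of the beta genes in TS, CS, and TBM, and Hbb-bs in CBM. As a share of adult beta UMIs, Hbb-bt was 87.4% in TS (interval 86.0% to 88.7%), 76.1% in CS (72.9% to 79.0%), 59.9% in TBM (58.5% to 61.3%), and 36.4% in CBM (35.04% to 37.8%), above the free RNA of each library. In each library Hbb-bs stood at 1.52% to 4.78% of its free RNA level, so subtracting 10% of UMIs as free RNA left none of it. The share was then 100% in TBM, CS, and TS, and no adult beta UMI was left in CBM. These 100% values were fixed by the size of the subtraction and do not inform on the share. The shares thus depend on how free RNA is treated. The class was held by different clusters, with cluster 0 giving 714 of 824 cells in CBM and 760 of 920 in TBM, and cluster 15 giving 419 of 687 in TS and none in CBM. Within cluster 0 the share was 34.2% in CBM and 58.5% in TBM, and 72.3% in CS and 91.9% in TS. Within cluster 14 it was 64.8% in CBM and 65.6% in TBM, and 55.9% in CS (21 cells, interval 42.4% to 68.8%) and 90.9% in TS, and the CS interval overlapped those of CBM and TBM. Cluster 15 had 82.9% in CS and 83.0% in TS. A share above free RNA was not limited to HSPC-like cells. In TS free RNA had 29.6%, and megakaryocyte-like cells had 52.1% (interval 46.2% to 57.9%). Granulocyte-monocyte progenitor-like cells of TS had 47.2% (42.3% to 52.04%). Both lay below the HSPC-like share of TS. Mast or basophil-like cells of TS lay above free RNA, and B-lineage-like and dendritic-like cells below it, all with intervals that held the free RNA value.

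The CBM value of HSPC-like cells rested on a few cells. 9 of 824 cells held 61.1% of the adult globin UMIs there, and 1 of them had 14.4% globin. Without the 1% of cells with most adult globin UMIs, the Hbb-bt share was 54.5% in CBM and 56.0% in TBM, and 69.8% in CS and 86.8% in TS, and Hbb-bt was the higher of the 2 beta genes in all 4 libraries. Hba-a1 then stood at 8.18 to 35.3 CPM, Hba-a2 at 5.33 to 29.8 CPM, Hbb-bs at 24.4 to 117 CPM, and Hbb-bt at 81.5 to 161 CPM.

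**Figure D3:**
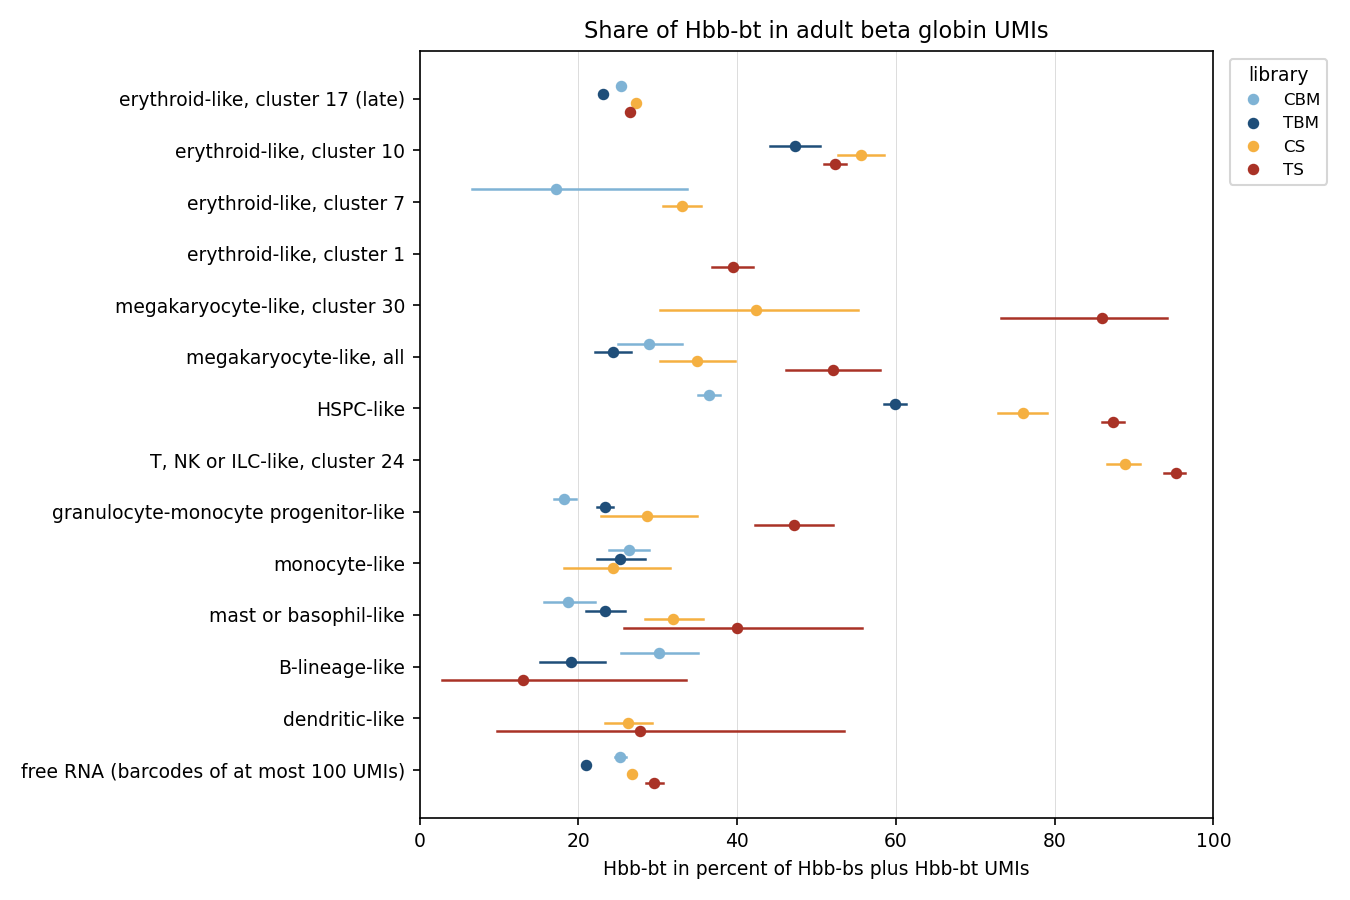
Hbb-bt in percent of the summed Hbb-bs and Hbb-bt UMIs, by population and library, with exact 95% binomial intervals. Free RNA and the late cluster lie at 21.0% to 29.6%, while HSPC-like cells of TBM, CS, and TS and cluster 24 lie at 59.9% to 95.2%.

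A minority of HSPC-like cells held most of the Hbb-bt. At least 10 Hbb-bt UMIs were counted in 34 CBM, 78 TBM, 16 CS, and 57 TS cells, and at least 10 Hbb-bs UMIs in 7, 3, 1, and 1. Cells with at least 10 Hbb-bt UMIs held 59.7% of all Hbb-bt UMIs of the class in CBM and 63.2% in TBM, and 74.9% in CS and 67.5% in TS. The cell with the most had 76 Hbb-bt and 2 Hbb-bs UMIs in TS, 91 and 1 in CS, 88 and 5 in TBM, but 310 and 1946 in CBM. In cells with at least 10 Hbb-bt UMIs, Hbb-bt was 32.4% of adult beta UMIs in CBM and 86.9% in TBM, and 96.7% in CS and 98.7% in TS. These cells were picked by their Hbb-bt count, which itself favors a high share, so the shares are given as a description. Among granulocyte-monocyte progenitor-like cells 3 CBM, 5 TBM, 0 CS, and 1 TS cell had 10 or more Hbb-bt UMIs, and 5, 10, 0, and 1 had as many Hbb-bs UMIs.

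With each cell thinned to 2000 UMIs, 13.1% of HSPC-like cells had an Hbb-bt UMI in CBM (42.4% before thinning) and 20.5% in TBM (59.9%), and 18.5% in CS (57.0%) and 21.3% in TS (49.2%). For Hbb-bs the thinned shares were 13.3%, 25% (230 of 920 cells), 13.2%, and 5.09%. Monocyte-like cells, which do not make hemoglobin, served for comparison, with Hbb-bt in 3.65% of CBM, 5.17% of TBM, and 3.13% of CS cells and Hbb-bs in 10.3%, 14.02%, and 7.29%. B-lineage-like cells had Hbb-bt in shares near those of HSPC-like cells, 13.5% in CBM and 20% (34 of 170 cells) in TBM, and Hbb-bs in larger ones, 31.1% and 60.6%. Mast or basophil-like cells had Hbb-bt in 7.02% of CBM and 14.5% of TBM cells and in 13.9% of CS and 6.06% of TS cells, and Hbb-bs in 31.1% and 42.8%, and 27.5% and 11.1%. In BM a thinned Hbb-bt share as high as that of HSPC-like cells was thus also found in B-lineage-like cells. In TS, which held 3 monocyte-like cells, granulocyte-monocyte progenitor-like cells had Hbb-bt in 3.44% and Hbb-bs in 4.59%. With cells thinned to 5000 UMIs, 12.4% of TS HSPC-like cells had an Hbb-bs UMI (interval 10.0% to 15.1%) and 30.5% an Hbb-bt UMI (27.1% to 34.2%), against 5.35% (3.42% to 7.92%) and 4.88% (3.05% to 7.37%) of the granulocyte-monocyte progenitor-like cells. At 2000 UMIs the Hbb-bs intervals of these 2 classes overlapped, and at 5000 they did not. The erythroid marker Klf1 was near 0 in these cells. In cluster 0, the largest HSPC-like cluster, it stood at 1.22 to 3.52 CPM.

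**Figure D4:**
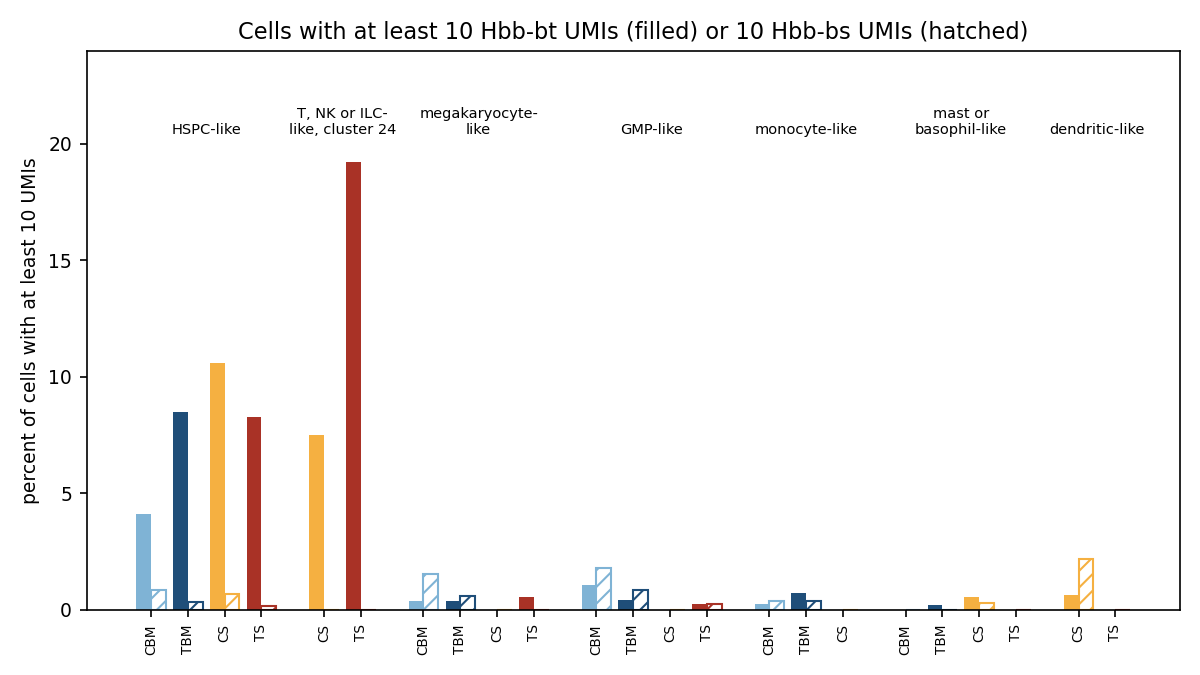
Percent of cells with at least 10 UMIs of Hbb-bt (filled bars) or of Hbb-bs (hatched bars) in each class and library, counted without thinning. HSPC-like cells have 16 to 78 cells per library with at least 10 Hbb-bt UMIs and cluster 24 has 6 and 20, against at most 7 and 0 with as many Hbb-bs UMIs.

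A T, NK or ILC-like cluster also held more Hbb-bt than Hbb-bs. Cluster 24, led by the T cell receptor genes Trbc1 and Trbc2 with Il2ra and Tcf7, held 80 CS and 104 TS cells, and the T cell receptor subunit Cd3e had 12 and 9 UMIs there. Hbb-bs stood at 66.1 (CS) and 21.8 (TS) CPM, and Hbb-bt at 525 and 437 CPM. Hbb-bt was 88.8% of adult beta UMIs in CS (interval 86.6% to 90.8%) and 95.2% in TS (93.8% to 96.5%). In CS 1 cell held 48.2% of the adult globin UMIs, and without it Hbb-bt stood at 228 CPM and 77.2%. In TS, without 2 cells, it stood at 362 CPM and 94.3%. At least 10 Hbb-bt UMIs were counted in 6 CS and 20 TS cells, and at least 10 Hbb-bs UMIs in none. Adult alpha summed to 39.0 (CS) and 10.2 (TS) CPM, with each alpha gene at 0.904% to 1.69% of its free RNA level, while Hbb-bt was at 39.4% and 76.2%. Alas2 had 0 UMIs in both libraries, Slc4a1 had 5 in CS and 2 in TS, and Klf1 had 18 (11.3 CPM) in CS and 21 (9.35 CPM) in TS.

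In a small megakaryocyte-like cluster adult alpha exceeded adult beta. Cluster 30, led by the platelet genes Ppbp, Clec1b, and Gp9, held 27 CS and 23 TS cells, while its 11 CBM and 3 TBM cells were too few to give a level. Hba-a1 stood at 5780 (CS) and 1466 (TS) CPM, and Hba-a2 at 1495 and 271 CPM. Hbb-bs stood at 254 (CS) and 78.9 (TS) CPM, and Hbb-bt at 187 and 485 CPM. Hba-a1 was thus at 354% of its free RNA level in CS and 270% in TS, and Hba-a2 at 141% and 85.7%. Hbb-bs was at 6.97% and 5.78%, and Hbb-bt at 14.05% and 84.6%. In TS Hba-a2 and Hbb-bt were thus near each other on this scale, and Hbb-bt had the higher level in CPM. The Hbb-bt value of TS rested largely on 1 cell, with 20 Hbb-bt and 0 Hbb-bs UMIs. That cell held 46.5% of the Hbb-bt UMIs, and 14 of the 23 cells had none.

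Adult alpha made up 94.3% of the adult globin UMIs of cluster 30 in CS (interval 92.8% to 95.6%) and 75.5% in TS (69.0% to 81.2%), against 35.2% and 30.7% in the free RNA of these libraries. In CS 1 cell held 41.2% of the adult globin UMIs. Without it alpha was 90.4% in CS and Hba-a1 stood at 3548 CPM, and without the highest cell of TS alpha was 65.5%. With cells thinned to 2000 UMIs, 25 of 27 CS cells and 8 of 23 TS cells had an Hba-a1 UMI, at median depths of 3469 and 3463 UMIs before thinning. Alas2 had 0 UMIs in both libraries. Megakaryocyte-like cells of all clusters, cluster 30 included, had Hba-a1 at 178 (CS) and 32.4 (TS) CPM, and cluster 30 gave 866 of the 948 Hba-a1 UMIs in CS and 130 of the 172 in TS.

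**Figure D5:**
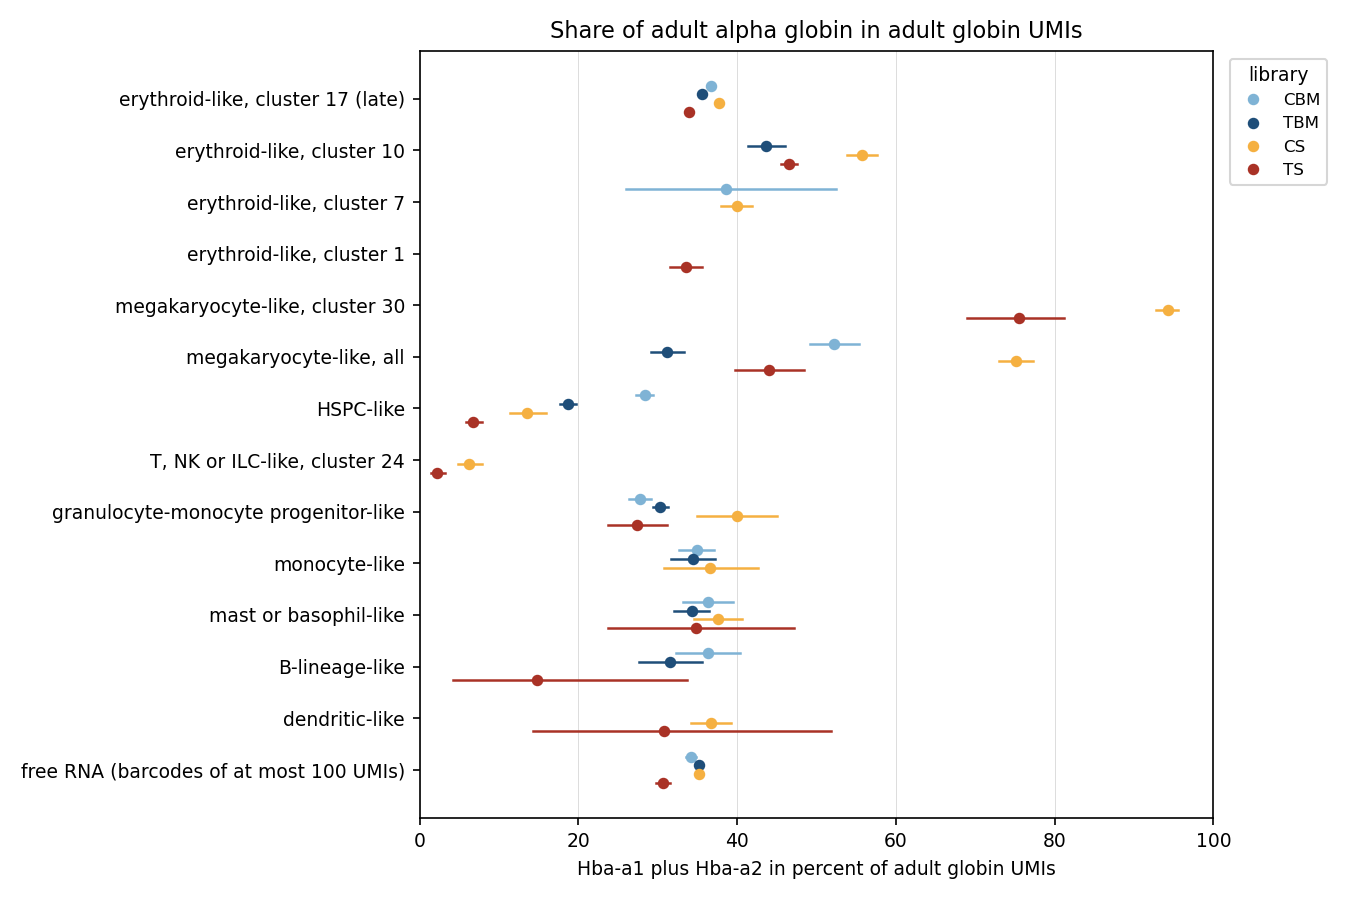
Hba-a1 plus Hba-a2 in percent of the UMIs of the 4 adult globin genes, by population and library, with exact 95% binomial intervals. Free RNA lies at 30.7% to 35.2%, megakaryocyte-like cluster 30 at 75.5% and 94.3%, and cluster 24 at 2.18% and 6.2%.

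The embryonic genes were at or near 0. Hbb-bh1 had 1 UMI in the 558414338 UMIs of the 4 libraries and 0 in cells, which allows up to 0.920 CPM (CBM) and 0.851 CPM (TBM) in erythroid-like cells of BM, and up to 0.0592 CPM (CS) and 0.0436 CPM (TS) in those of spleen. Hba-x had 5 UMIs, 1 in TBM, 2 in CS, and 2 in TS, of which 3 were in erythroid-like cells. Among the other genes of both clusters, the embryonic beta-like Hbb-y had 40 UMIs and Hbb-bh2 had 0. Hbq1b, a theta gene of the alpha cluster, had 287 UMIs, of which 163 were in erythroid-like cells, and Hbq1a had 47.

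Much of the globin RNA lay outside the cells that passed the filter. Cells held 54.0% of the adult globin UMIs in CBM and 39.2% in TBM, and 53.0% in CS and 52.7% in TS, and free RNA held 2.52%, 2.37%, 5.26%, and 3.61%. The rest, 41.7% to 58.5%, lay in barcodes of more than 100 UMIs that did not pass. Barcodes with at least 50% of their UMIs from adult globin genes numbered 50 in CBM and 111 in TBM, and 26 in CS and 14 in TS. Of these, 28, 43, 14, and 7 passed the filter, and all of the others had fewer than 1000 genes. Passing and failing barcodes together, the 50, 111, 26, and 14 held 42.0%, 49.3%, 32.7%, and 24.1% of the adult globin UMIs of their libraries. The Hbb-bt share of all these barcodes was 22.5%, 17.7%, 23.5%, and 20.6% of adult beta UMIs. Beneath the filter lay 22, 68, 12, and 7 of them in CBM, TBM, CS, and TS.

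Across 31 sums of a class in a library, the genes whose level followed Hbb-bs closely included Slc4a1, Alas2, Trim10, and Ppox, with Pearson correlations of 0.949, 0.929, 0.921, and 0.896 of log2(CPM + 1) among 8406 genes. Hbb-bs itself correlated at 0.986 with Hba-a2, 0.953 with Hba-a1, and 0.844 with Hbb-bt. For Hbb-bt, a gene added after its values were seen, the highest correlation was 0.893 with Slc4a1, followed by Ppox, Trak2, Fbxo7, and Trim10. Slc4a1, Alas2, and Trim10 are also on the marker list that named the erythroid-like class, which itself favors a high correlation over class sums. The sums share libraries and free RNA as well, so these values are descriptions.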

How the data were processed

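Unfiltered gene-by-barcode tables of 4 libraries (1 per group) were used, in which the deposited values are raw UMI counts that the authors obtained with Cell Ranger 4.0 on mm10, per the submitters' processing notes. The authors' later steps (removal of free RNA, cell filter, normalization) are not in these counts. The number of mice per library is not given in the sources used here, and no group has a replicate, so no test was run. Groups were taken from the sample titles. The genes and lists were chosen with earlier results of these data known.

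Cells were barcodes with at least 1000 genes and at most 10% mt- UMIs, and free RNA was barcodes with at most 100 UMIs. Cells were clustered on 17596 genes without globin genes (50 principal components, 20 neighbors, Leiden resolution 1.2) into 37 clusters, and class names were rebuilt from marker lists, so they may differ from those of the study. Doublets were not removed, and by Scrublet there were 38 in CBM, 50 in TBM and, in spleen, 6 in CS and 101 in TS. Levels are summed UMIs per class and library, given for at least 20 cells, with exact Poisson intervals (levels), exact binomial intervals (shares), and exact conditional intervals (ratios) at 95%, and a count of 0 was given the limit of 3 counts. A gene was compared between libraries if its mean was at least 10 CPM, and a 2-fold change was called. Named genes are the members, the genes of the lists past 2-fold, and the 5 genes most like Hbb-bs, and further genes were picked with their values known. Some genes that this rule or the marker lists name are not reported here. Scripts were tested on simulated data. Alternatives changed the filters, free RNA, denominator, clustering, naming, doublets, and thinning. Python 3.11.15, numpy 2.4.6, scipy 1.17.1, pandas 2.3.3, scikit-learn 1.9.0, igraph 0.11.9, leidenalg 0.10.2, scanpy 1.11.5, and matplotlib 3.10.9 were used.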

Additional observations from a re-analysis of the deposited data

Results flagged for a closer look

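In erythroid-like cells, adult globin stood lower in TS than in CS, with a log2 ratio of -1.87, and higher in TBM than in CBM, with a log2 ratio of 0.15. The ratios of the 2 tissues thus had opposite signs. These sums mostly give the mix of clusters in each library, and the sign of the TBM over CBM ratio reversed under 3 settings. The difference was not tested. In the late cluster alone both ratios were below 0, at -0.57 in spleen and -0.092 in BM.

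Barcodes with most of their UMIs from adult globin genes were also found among those that did not pass the filter on genes, with 22 in CBM and 68 in TBM, and 12 in CS and 7 in TS. They are not among the cells of the comparisons between libraries, other than where the filter was lowered to 350 genes.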

How the results depend on the processing

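No paired analysis was possible because each group is 1 library and no result comes from a test. Most values moved by more than their counting interval, which is narrow here. Some moved far, such as the erythroid-like shares of CS and TS with at least 350 genes. Depth limits the small classes, and the shares of cells with a UMI depend on the depth of thinning in large classes too. The cause of a move was not tested. The late-cluster settings and those without the cells of most globin were chosen after seeing the data. The sign of the erythroid-like TBM/CBM ratio reversed under 3 settings. Subtraction of free RNA left no adult beta UMI in HSPC-like cells of CBM, so it gives no Hbb-bt share there. Cluster 30 had too few cells at 2000 genes, and clusters 17, 24, and 30 have no value where cells were clustered anew.

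With at least 350 genes and new clusters, the erythroid-like share was 29.7% (CBM), 34.0% (TBM), 28.1% (CS), and 15.7% (TS). Log2 ratios of erythroid-like cells were -0.84 (TS/CS), 0.19 (TBM/CBM), -0.081 (CS/CBM), and -1.12 (TS/TBM). Signs reversed for TBM/CBM of Hba-a2 (0.045) and Hbb-bt (-0.088). With at least 2000 genes, the erythroid-like share was 9.33% (CBM), 8.63% (TBM), 0.532% (CS), and 0.120% (TS). For erythroid-like cells the log2 ratios were -2.15 (TS/CS), -0.11 (TBM/CBM), -4.13 (CS/CBM), and -6.17 (TS/TBM), and in the late cluster -0.84 (TS/CS), -0.36 (TBM/CBM), -0.092 (CS/CBM), and -0.57 (TS/TBM). The TBM/CBM sign reversed for Hba-a1 (-0.023), Hbb-bs (-0.085), and Hbb-bt (-0.11). With at most 5% mt- UMIs, the erythroid-like share was 14.4% (CBM), 17.3% (TBM), 0.744% (CS), and 0.214% (TS) and the HSPC-like Hbb-bt share was 35.01% (CBM). Erythroid-like ratios (log2) were -1.80 (TS/CS), 0.27 (TBM/CBM), and -6.34 (TS/TBM), and in the late cluster -0.54 (TS/CS), -0.058 (TBM/CBM), -0.21 (CS/CBM), and -0.70 (TS/TBM). Signs reversed for TBM/CBM of Hba-a2 (0.056). With 10% of UMIs subtracted as free RNA, the erythroid-like share was 15.6% (CBM), 17.3% (TBM), 0.725% (CS), and 0.190% (TS), the HSPC-like Hbb-bt share was 100% (TBM), 100% (CS), and 100% (TS), the cluster 24 Hbb-bt share was 100% (CS) and 100% (TS), and the cluster 30 alpha share was 99.2% (CS). The 100% values were fixed by the size of the subtraction, as Hbb-bs stood below 10% of its free RNA level in these cells. In cluster 30 of CS, Hbb-bs stood at 6.97% of that level, so its removal was fixed too. Log2 ratios of erythroid-like cells were -1.93 (TS/CS), -4.42 (CS/CBM), and -6.51 (TS/TBM). With UMIs other than globin as the denominator, the erythroid-like share was 16.4% (CBM), 18.6% (TBM), and 0.735% (CS). For erythroid-like cells the log2 ratios were 0.18 (TBM/CBM), -4.48 (CS/CBM), and -6.55 (TS/TBM), and in the late cluster -0.71 (TS/CS), -0.13 (TBM/CBM), -0.28 (CS/CBM), and -0.86 (TS/TBM). As a mean over cells, the erythroid-like share was 24.9% (CBM), 27.1% (TBM), 2.36% (CS), and 0.708% (TS), the HSPC-like Hbb-bt share was 41.3% (CBM), 58.0% (TBM), and 85.0% (TS), the cluster 24 Hbb-bt share was 79.2% (CS) and 93.4% (TS), and the cluster 30 alpha share was 92.6% (CS). Erythroid-like ratios (log2) were -1.74 (TS/CS), 0.12 (TBM/CBM), -3.40 (CS/CBM), and -5.26 (TS/TBM), and in the late cluster -0.48 (TS/CS), -0.082 (TBM/CBM), -0.18 (CS/CBM), and -0.58 (TS/TBM). The TBM/CBM sign reversed for Hbb-bt (-0.033). At resolution 0.6, the erythroid-like share was 15.5% (TBM), 0.718% (CS), and 0.186% (TS). Log2 ratios of erythroid-like cells were -1.95 (TS/CS), 0.14 (TBM/CBM), -4.30 (CS/CBM), and -6.38 (TS/TBM). At resolution 2, the erythroid-like share was 16.6% (CBM), 1.11% (CS), and 0.202% (TS). For erythroid-like cells the log2 ratios were -2.46 (TS/CS), -0.083 (TBM/CBM), -3.90 (CS/CBM), and -6.28 (TS/TBM). Signs reversed for TBM/CBM of Hba-a1 (-0.028), Hbb-bs (-0.013), and Hbb-bt (-0.20). With a gate of at least 4 markers per cell, the erythroid-like share was 8.09% (CBM), 11.7% (TBM), 0.534% (CS), and 0.134% (TS) and the HSPC-like Hbb-bt share was 55.5% (CBM), 55.4% (TBM), and 68.9% (CS). Erythroid-like ratios (log2) were -2.00 (TS/CS), 0.54 (TBM/CBM), -3.92 (CS/CBM), and -6.46 (TS/TBM). The TBM/CBM sign reversed for Hba-a2 (0.32). Without the 5% of cells with the highest Scrublet score, the erythroid-like share was 15.4% (CBM), 16.1% (TBM), 0.759% (CS), and 0.201% (TS) and the HSPC-like Hbb-bt share was 57.0% (CBM). Log2 ratios of erythroid-like cells were -1.92 (TS/CS), 0.066 (TBM/CBM), -4.34 (CS/CBM), and -6.32 (TS/TBM), and in the late cluster -0.55 (TS/CS), -0.15 (TBM/CBM), -0.24 (CS/CBM), and -0.64 (TS/TBM). Signs reversed for TBM/CBM of Hbb-bt (-0.062). With the late cluster alone, the erythroid-like share was 27.8% (CBM), 26.0% (TBM), 24.02% (CS), and 16.2% (TS). For erythroid-like cells the log2 ratios were -0.57 (TS/CS), -0.092 (TBM/CBM), -0.21 (CS/CBM), and -0.68 (TS/TBM). The TBM/CBM sign reversed for Hba-a1 (-0.037), Hbb-bs (-0.023), and Hbb-bt (-0.20). Without the 1% of cells with most globin, the erythroid-like share was 13.4% (CBM), 15.3% (TBM), 0.507% (CS), and 0.0900% (TS), the HSPC-like Hbb-bt share was 54.5% (CBM), 56.0% (TBM), and 69.8% (CS), the cluster 24 Hbb-bt share was 77.2% (CS), and the cluster 30 alpha share was 90.4% (CS) and 65.5% (TS). Erythroid-like ratios (log2) were -2.49 (TS/CS), 0.19 (TBM/CBM), -4.73 (CS/CBM), and -7.41 (TS/TBM), and in the late cluster -0.58 (TS/CS), -0.073 (TBM/CBM), -0.20 (CS/CBM), and -0.70 (TS/TBM).

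Free RNA held 0.975% adult globin in CBM with at most 50 UMIs, and 0.355% (CBM), 0.663% (TBM), 0.725% (CS), and 0.135% (TS) with 10 to 100 UMIs. HSPC-like cells with an Hbb-bt UMI made up 8.74% (CBM), 12.5% (TBM), and 11.5% (TS) at 1000 UMIs, and 23.8% (CBM), 34.98% (TBM), 30% (CS), and 30.5% (TS) at 5000. Barcodes with at least 25% adult globin numbered 102 (CBM), 171 (TBM), 49 (CS), and 34 (TS).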
